A study of Homo sapiens with 16 samples.

Results

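The 9 receptors described here carry the signals of hematopoietic growth factors: CSF1R, CSF2RA, CSF2RB, CSF3R, FLT3, KIT, EPOR, IL6R and IL6ST. They were chosen by name, as the rows of the table whose Ensembl identifier maps to these symbols, and they are 9 of 62700 genes in the table. CSF2RA has a second row under another identifier, so the 9 genes fill 10 rows, and 7 of the 9 averaged 10 or more normalized counts over the 16 libraries and were tested. RNA-seq was made from OCI-AML3, an established human acute myeloid leukemia line with mutant NPM1, in 16 libraries. The 4 untreated libraries were compared with 4 treated groups of 3 libraries each. For 3 h these had received a retinoid alone, either ATRA or Am80, or the same retinoid together with both GSK-LSD1 and MB3, named the inhibitors here. ATRA is the natural retinoid that activates every retinoic acid receptor, and Am80 (tamibarotene) is a synthetic retinoid selective for RARA. GSK-LSD1 inhibits the histone demethylase LSD1, and MB3 inhibits the histone acetyltransferase GCN5. ATRA, Am80 and GSK-LSD1 were each used at 0.1 µM and MB3 at 100 µM, the doses set for cell lines. No group received the inhibitors without a retinoid, so inhibitor effects are read only on top of ATRA or Am80, and all groups are of the same cell line.

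The receptors fall into families that work in different ways. CSF3R, CSF2RA, CSF2RB, EPOR, IL6R and IL6ST are chains of cytokine receptors and have no kinase of their own. JAK kinases bound to the signalling chains phosphorylate STAT transcription factors once a ligand has joined the chains. CSF2RB is the beta chain shared by the receptors of GM-CSF, IL-3 and IL-5, and IL6ST (gp130) is the signalling chain shared by IL-6, IL-11, LIF, oncostatin M and related cytokines. CSF1R, FLT3 and KIT are receptor tyrosine kinases of one family, which phosphorylate themselves when their ligand pairs them. In normal blood formation KIT and FLT3 mark early progenitors, CSF3R and CSF1R accompany the granulocytic and the monocytic lineage, and EPOR serves red cell precursors.

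Promoters are shown for the receptor that rose most with both combinations and for the one that fell most, as the 250 bases before the start of transcription, 5′ to 3′ in the direction of the gene. RefSeq gave promoters of GRCh38.p14 for 8 of the 9 genes, and CSF2RB was not among them. Capitals mark GAGGAA, the core read by PU.1, a myeloid factor of the ETS family. For CSF1R the second of 2 listed starts is printed, since it holds this core.
IL6ST, chr5:55994964-55995213, minus strand: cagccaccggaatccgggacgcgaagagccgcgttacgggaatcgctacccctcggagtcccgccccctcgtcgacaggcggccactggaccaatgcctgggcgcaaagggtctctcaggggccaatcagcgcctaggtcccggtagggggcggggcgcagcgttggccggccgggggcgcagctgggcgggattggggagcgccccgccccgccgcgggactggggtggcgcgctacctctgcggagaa
CSF1R, chr5:150086555-150086804, minus strand: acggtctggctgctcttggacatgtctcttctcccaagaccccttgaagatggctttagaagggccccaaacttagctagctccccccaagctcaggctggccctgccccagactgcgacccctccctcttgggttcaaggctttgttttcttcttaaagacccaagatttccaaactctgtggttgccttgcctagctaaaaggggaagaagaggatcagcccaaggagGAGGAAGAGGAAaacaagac

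Both strands were searched from 250 bases before to 50 bases after each start for 6 motifs. These were the retinoid sites AGGTCA and AGTTCA, the repeats AGNTCANNNNNAGNTCA and AGNTCANNAGNTCA, GAGGAA, and the STAT core TTCNNNGAA. A match to a repeat can hold one of the single sites, and would then count under both. GAGGAA stood 3 times in the CSF1R promoter, at bases -20 and -14 before the start and at base 20 after it. It stood 2 times each in the IL6R and CSF2RA promoters and once each in those of FLT3 and CSF3R, and 27.9% of the 35116 RefSeq promoters hold it at least once. CSF1R and CSF3R each have 2 listed starts, and their matches stand only at the second of them. With 2 windows searched, these genes are not set evenly beside that share. None of the 6 motifs was in the IL6ST, EPOR or KIT window. AGGTCA, found in 13.8% of all promoters, and AGTTCA, found in 10.4%, were in the CSF2RA window and in no other member's, and neither repeat nor the STAT core was in any. A match is a match of letters only.

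Each library held between 11963898 and 33789718 reads assigned to genes, a 2.82-fold range of depth. The retinoid labels were checked with known targets, of which only TGM2 is given here. TGM2 stood between 73.5 and 94.2 normalized counts in the untreated libraries and between 5474 and 11284 in the 12 treated ones. This sets treated libraries apart from untreated ones, and does not check the ATRA, Am80 or inhibitor labels against each other. All 14 myeloid marker genes looked up passed the filter on low values, while 8 of 9 erythroid genes had at most 3 reads in any library and the ninth, KLF1, had 1 to 15. Mitochondrial transcripts took 6.02% to 7.53% of the reads without inhibitors and 7.07% to 9.21% with them. This share moves with the inhibitor groups, and its part in the results was not tested. In bulk RNA, fewer cells of a type and less RNA per cell cannot be told apart.

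KIT, the receptor of stem cell factor and the surface marker CD117, was at the floor. Its counts were 1, 1, 0 and 2 reads in the untreated libraries, 1, 2 and 4 with ATRA, 0, 0 and 3 with Am80, 1, 1 and 0 with ATRA plus inhibitors, and 0, 0 and 1 with Am80 plus inhibitors. These 17 reads in all give no ground for a comparison between groups, and a change in KIT was not detectable at this depth. The gene (ENSG00000157404.17, chr4:54657918-54740715, plus strand) was therefore not tested.

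CSF2RA, the chain that binds GM-CSF, was listed at 0 in all 16 libraries in both of its rows (ENSG00000198223.18, chrX:1268800-1310381, and ENSG00000292357.1). A 0 in this stretch of the genome is given only as listed. CSF2RA lies in a stretch of the X chromosome that has an identical copy on Y. Of the 18 protein-coding genes that GENCODE annotates on both X and Y, in this or any other shared stretch, 16 (88.9%) had no read in any library. Among the other protein-coding genes of X 242 of 822 (29.4%) had none, and among all protein-coding genes 2653 of 19831 (13.4%). The genes at 0 include SLC25A6, an ADP/ATP carrier that most cells use, and CD99 had 1 read over the 16 libraries. IL3RA and CRLF2, the receptor chains for IL-3 and TSLP, lie in the same stretch and were also listed at 0. Whether reads that match both copies were set aside in counting was not tested, and no statement on GM-CSF or IL-3 receptor alpha chains can be drawn from these values.

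Per kilobase of exon, which allows levels to be compared between genes, IL6R was the most abundant of the 7 measured receptors in untreated cells. It stood at 1477 ± 18.9 normalized counts per kilobase (SD, n = 4), above 97.2% of the tested genes with a length by its mean over the 16 libraries. FLT3 followed at 362 ± 8.74, CSF3R at 306 ± 18.4 and CSF2RB at 138 ± 2.37 on the same scale. EPOR at 75.7 ± 9.57, CSF1R at 60.4 ± 2.67 and IL6ST at 25.2 ± 2.82 were the lowest. No neighbours in this order had overlapping ranges in untreated cells, although FLT3 and CSF3R changed places when the longest transcript was used as the length. IL6R, the chain that binds IL-6, was thus 58.6 times as abundant per length as IL6ST, the chain it signals through.

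The order changed at its lower end with treatment. In the untreated, ATRA and Am80 libraries IL6ST was the lowest of the 7 receptors. With ATRA plus inhibitors IL6ST stood at 45.8 ± 3.36 normalized counts per kilobase (SD, n = 3) and CSF1R at 40.5 ± 4.26, with overlapping ranges. With Am80 plus inhibitors IL6ST stood at 44.6 ± 1.67 and CSF1R at 38.1 ± 0.390, and their ranges did not overlap. By longest transcript CSF1R remained above IL6ST in both combinations. FLT3 and CSF3R overlapped in the ATRA libraries, the only other pair of neighbours to do so in any group.

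**Figure D1:**
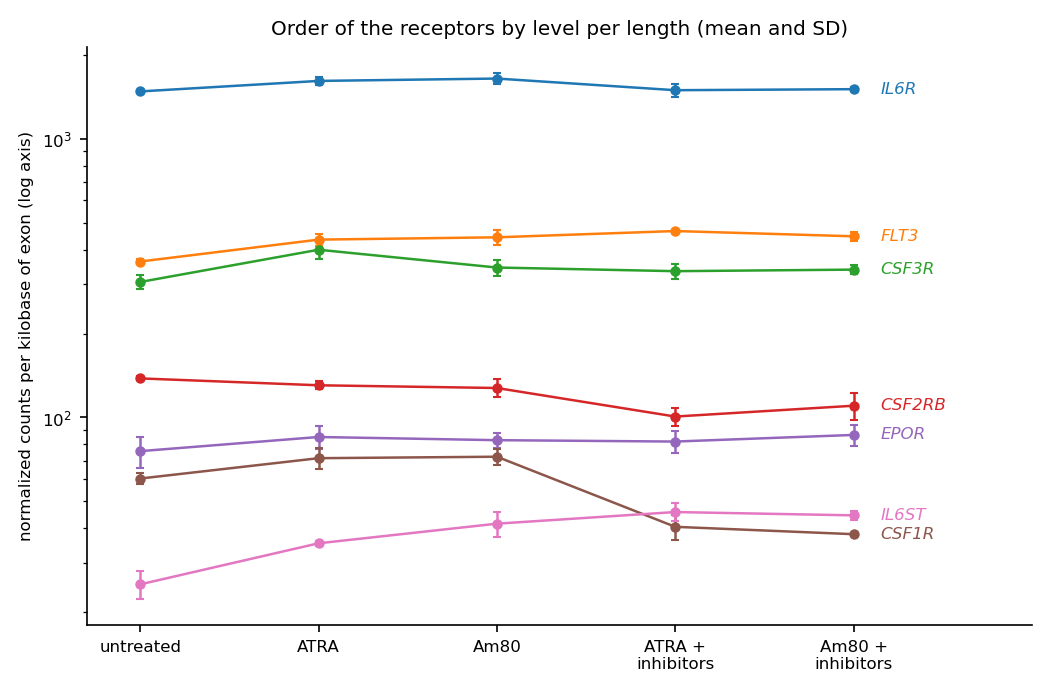
Normalized counts per kilobase of merged exons (log axis) of the 7 measured receptors in the 5 groups, as mean and SD over 4 untreated and 3 treated libraries each. IL6R stays highest in every group, while the lines of IL6ST and CSF1R cross between Am80 and the groups with inhibitors.

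IL6ST rose in all 4 treated groups, as FLT3 did. Its gene (ENSG00000134352.21, chr5:55935095-55994993, minus strand) had 237, 224, 269 and 207 normalized counts in the untreated libraries. It had 335, 322 and 330 with ATRA, and 361, 432 and 367 with Am80. With ATRA plus inhibitors it had 454, 430 and 392, and with Am80 plus inhibitors 401, 410 and 431. Every treated library was above every untreated one. On the log2 scale the rise over untreated cells was 0.49 ± 0.09 (SE) with ATRA (limma, adjusted p = 0.000383) and 0.72 ± 0.09 with Am80 (adjusted p = 3.6e-06). It was 0.86 ± 0.09 with ATRA plus inhibitors (adjusted p = 1.19e-07) and 0.83 ± 0.09 with Am80 plus inhibitors (adjusted p = 2.2e-07), which is 1.82-fold and 1.77-fold. Adding the inhibitors to ATRA raised IL6ST by a further 0.37 ± 0.10 (adjusted p = 0.0044), although with scaling by total reads this step was 0.22 and was not called (adjusted p = 0.0851). Adding them to Am80 gave 0.10, with a 95% interval from -0.10 to 0.31 (adjusted p = 0.433). The difference between these 2 steps was -0.27, with an interval from -0.56 to 0.03 (adjusted p = 0.372). A processed pseudogene of this gene, IL6STP1, held 3 reads over the 16 libraries.

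IL6R, the IL-6 binding chain, moved little with the deposited scaling. The gene (ENSG00000160712.13, chr1:154405193-154469450, plus strand) had 9564, 9660, 9525 and 9367 normalized counts in untreated cells. It had 10538, 9986 and 10650 with ATRA, and 10892, 10053 and 10847 with Am80. With ATRA plus inhibitors the values were 9974, 9063 and 9841, and with Am80 plus inhibitors 9549, 9805 and 9766. Both retinoid groups lay above the untreated range, and both combination groups overlapped it. Only the Am80 difference was called, at 0.15 ± 0.06 on the log2 scale (adjusted p = 0.0469). This call rests on a narrow margin: it was lost in 12 of the 16 fits that leave out 1 library (adjusted p up to 0.165), and with quantile normalization, where the difference was 0.08. The Am80 call was also lost without the filter (adjusted p = 0.157), with scaling by total reads (adjusted p = 0.24) and with only the groups compared (adjusted p = 0.172). The ATRA difference was 0.12 ± 0.06 and was not called by limma (adjusted p = 0.116), but DESeq2 called it (adjusted p = 0.0491).

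The direction of IL6R against untreated cells in the combinations depends on the scaling. The deposited scaling gave 0.01 (adjusted p = 0.855) for ATRA plus inhibitors and 0.03 (adjusted p = 0.712) for Am80 plus inhibitors. With scaling by total reads these became -0.13 (adjusted p = 0.0462) and -0.16 (adjusted p = 0.0221), and with quantile normalization -0.13 (adjusted p = 0.0542) and -0.18 (adjusted p = 0.0118). Scaling by total reads moved the median of all genes by -0.15 and -0.18 in these comparisons, so on that scale the IL6R difference lay close to the median gene. Quantile normalization moved the median by only -0.021 and -0.039, so there IL6R lay below the median gene. Against its retinoid alone, IL6R stood at -0.11 with ATRA plus inhibitors (adjusted p = 0.133) and at -0.13 with Am80 plus inhibitors (adjusted p = 0.104), with ranges that did not overlap. Both steps were larger and called with quantile normalization (-0.25 and -0.26, adjusted p = 0.00295 and 0.00256) and with scaling by total reads (-0.26 and -0.25, adjusted p = 0.00152 and 0.00253). The Am80 step was also called by DESeq2 (adjusted p = 0.0465) and without Am80 replicate 2 (-0.16, adjusted p = 0.0419). An antisense gene, IL6R-AS1, and a pseudogene overlap IL6R on the other strand with 198 and 39 reads over the 16 libraries, against 167503 for IL6R.

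CSF3R, the receptor of G-CSF, rose with ATRA. The gene (ENSG00000119535.20, chr1:36466043-36483278, minus strand) had 2466, 2627, 2779 and 2450 normalized counts in untreated cells and 3273, 3642 and 3186 with ATRA. It had 2739, 2857 and 3126 with Am80, 2898, 2628 and 2937 with ATRA plus inhibitors, and 2905, 2731 and 2937 with Am80 plus inhibitors. The 3 ATRA libraries lay above all 13 others. The rise with ATRA was 0.38 ± 0.07 on the log2 scale, or 1.30-fold (adjusted p = 0.00024). With Am80 the difference was 0.17 ± 0.07 and was not called (adjusted p = 0.068), but it was called when untreated replicate 3 was left out (0.21, adjusted p = 0.0375). With the inhibitors added to ATRA, CSF3R fell by 0.25 ± 0.07 on the log2 scale against ATRA alone (adjusted p = 0.00739), a call lost without ATRA replicate 2 (adjusted p = 0.0538). The same addition to Am80 gave -0.02, with an interval from -0.18 to 0.13. Against untreated cells the combinations stood at 0.13 (adjusted p = 0.114) and 0.15 (adjusted p = 0.0749), values that turned to between -0.05 and -0.02 with quantile normalization or scaling by total reads. For Am80 plus inhibitors the difference was 0.18 and was called without untreated replicate 3 (adjusted p = 0.0364).

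CSF2RB, the common beta chain, fell in both combinations. The gene (ENSG00000100368.15, chr22:36913628-36940449, plus strand) had 689, 675, 704 and 694 normalized counts in untreated cells, 631, 650 and 676 with ATRA, and 685, 591 and 637 with Am80. It had 462, 536 and 514 with ATRA plus inhibitors and 600, 569 and 484 with Am80 plus inhibitors, all 6 below every untreated library. The difference from untreated cells was -0.46 ± 0.08 on the log2 scale with ATRA plus inhibitors (adjusted p = 5.69e-05) and -0.33 ± 0.08 with Am80 plus inhibitors (adjusted p = 0.00154). In these comparisons 41.9% and 50.4% of the tested genes changed by more. Neither retinoid alone gave a call, at -0.08 with ATRA (adjusted p = 0.507) and -0.12 with Am80 (adjusted p = 0.301). Against ATRA alone, ATRA plus inhibitors differed by -0.37 ± 0.09 (adjusted p = 0.00124). Against Am80 alone, Am80 plus inhibitors differed by -0.21 ± 0.09, just short of a call (adjusted p = 0.0527). This step was called by edgeR (adjusted p = 0.039) and with scaling by total reads (-0.34, adjusted p = 0.00238), but not by DESeq2 (adjusted p = 0.0724) or with only the groups compared (adjusted p = 0.111). With 1 library left out it ranged from -0.28 without replicate 1 of Am80 plus inhibitors (adjusted p = 0.0267) to -0.12 without replicate 3 of that group (adjusted p = 0.297). Of its alpha chain partners, CSF2RA and IL3RA were listed at 0 and IL5RA, the IL-5 chain, had at most 1 read in any library. CSF2RA and IL3RA lie in a stretch that X shares with Y, so their zeros do not show that these chains are absent.

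EPOR, the erythropoietin receptor, had 177 to 463 reads in every library, while all 9 erythroid marker genes were under the filter. The gene (ENSG00000187266.14, chr19:11377205-11384342, minus strand) ranged from 194 to 293 normalized counts over the 16 libraries, and every treated group overlapped the untreated range of 194 to 263. No comparison called it, and its differences from untreated cells lay between 0.12 and 0.20 on the log2 scale, with 95% intervals that reached from -0.11 to 0.42. The largest, with Am80 plus inhibitors, was called without untreated replicate 4 (0.26, adjusted p = 0.046) and with quantile normalization (0.27, adjusted p = 0.0335). RGL3, a neighbour on the same strand, overlaps EPOR and held 2671 reads against 4225 for EPOR.

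CSF1R, the receptor of M-CSF, was the receptor that fell most, and every called fall was in a group with inhibitors. The gene (ENSG00000182578.14, chr5:150053291-150113372, minus strand) had 291, 323, 313 and 317 normalized counts in untreated cells. It had 333, 384 and 388 with ATRA, and 391, 343 and 383 with Am80, all above the untreated range. With ATRA plus inhibitors it had 211, 186 and 230, and with Am80 plus inhibitors 198, 197 and 194, all below it. Against untreated cells the difference was -0.58 ± 0.09 on the log2 scale with ATRA plus inhibitors (adjusted p = 1.38e-05) and -0.66 ± 0.09 with Am80 plus inhibitors (adjusted p = 2.86e-06). Against the retinoid alone it was -0.82 ± 0.10 (adjusted p = 1.01e-06) and -0.92 ± 0.10 (adjusted p = 2.64e-07), that is 1.76-fold and 1.89-fold lower, and 10.4% and 7.1% of the tested genes changed by more in those comparisons. In the comparisons of the combinations with untreated cells, 31.3% and 23.2% of the tested genes changed by more than CSF1R.

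The rise of CSF1R with a retinoid alone was smaller and sat at the threshold. It was 0.26 ± 0.09 on the log2 scale with Am80 (adjusted p = 0.035) and 0.24 ± 0.09 with ATRA, which was not called (adjusted p = 0.0566). The Am80 call was lost without untreated replicate 1 or 3 or Am80 replicate 1 or 3 (adjusted p up to 0.137). The same call was lost without the filter (adjusted p = 0.0718), with scaling by total reads (adjusted p = 0.106) and with only the groups compared (adjusted p = 0.0768). The ATRA difference was called without ATRA replicate 1 (0.31, adjusted p = 0.0343), without Am80 replicate 2 or without replicate 2 of ATRA plus inhibitors. Calls of it also came from edgeR (adjusted p = 0.0473), quantile normalization (adjusted p = 0.037) and a mean of at least 50 (adjusted p = 0.0483). RPL7P1, a ribosomal protein pseudogene, lies inside CSF1R on the opposite strand and held 1686 reads against 5102 for CSF1R. RefSeq lists 2 starts for CSF1R, and counts per gene do not tell them apart.

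FLT3, the receptor of FLT3 ligand, rose in all 4 treated groups. The gene (ENSG00000122025.15, chr13:28003274-28100592, minus strand) had 1494, 1479, 1561 and 1497 normalized counts in untreated cells. It had 1842, 1700 and 1876 with ATRA, 1721, 1948 and 1854 with Am80, 1963, 1925 and 1929 with ATRA plus inhibitors, and 1814, 1824 and 1931 with Am80 plus inhibitors. All 12 treated libraries lay above the 4 untreated ones. The rises were 0.26 ± 0.06 with ATRA, 0.29 ± 0.06 with Am80, 0.36 ± 0.06 with ATRA plus inhibitors and 0.30 ± 0.06 with Am80 plus inhibitors on the log2 scale, with limma adjusted p-values from 2.64e-05 to 0.00245. All of them were under 1.5-fold, and the last was 0.12 with scaling by total reads and not called (adjusted p = 0.115). With the combinations, 51.7% (ATRA) and 53.7% (Am80) of the tested genes changed by more than FLT3. Adding the inhibitors to a retinoid did not give a call: the steps were 0.10 on ATRA, with an interval from -0.03 to 0.24, and 0.01 on Am80, from -0.12 to 0.15. Both steps turned below 0 with quantile normalization (-0.01 and -0.09).

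**Figure D2:**
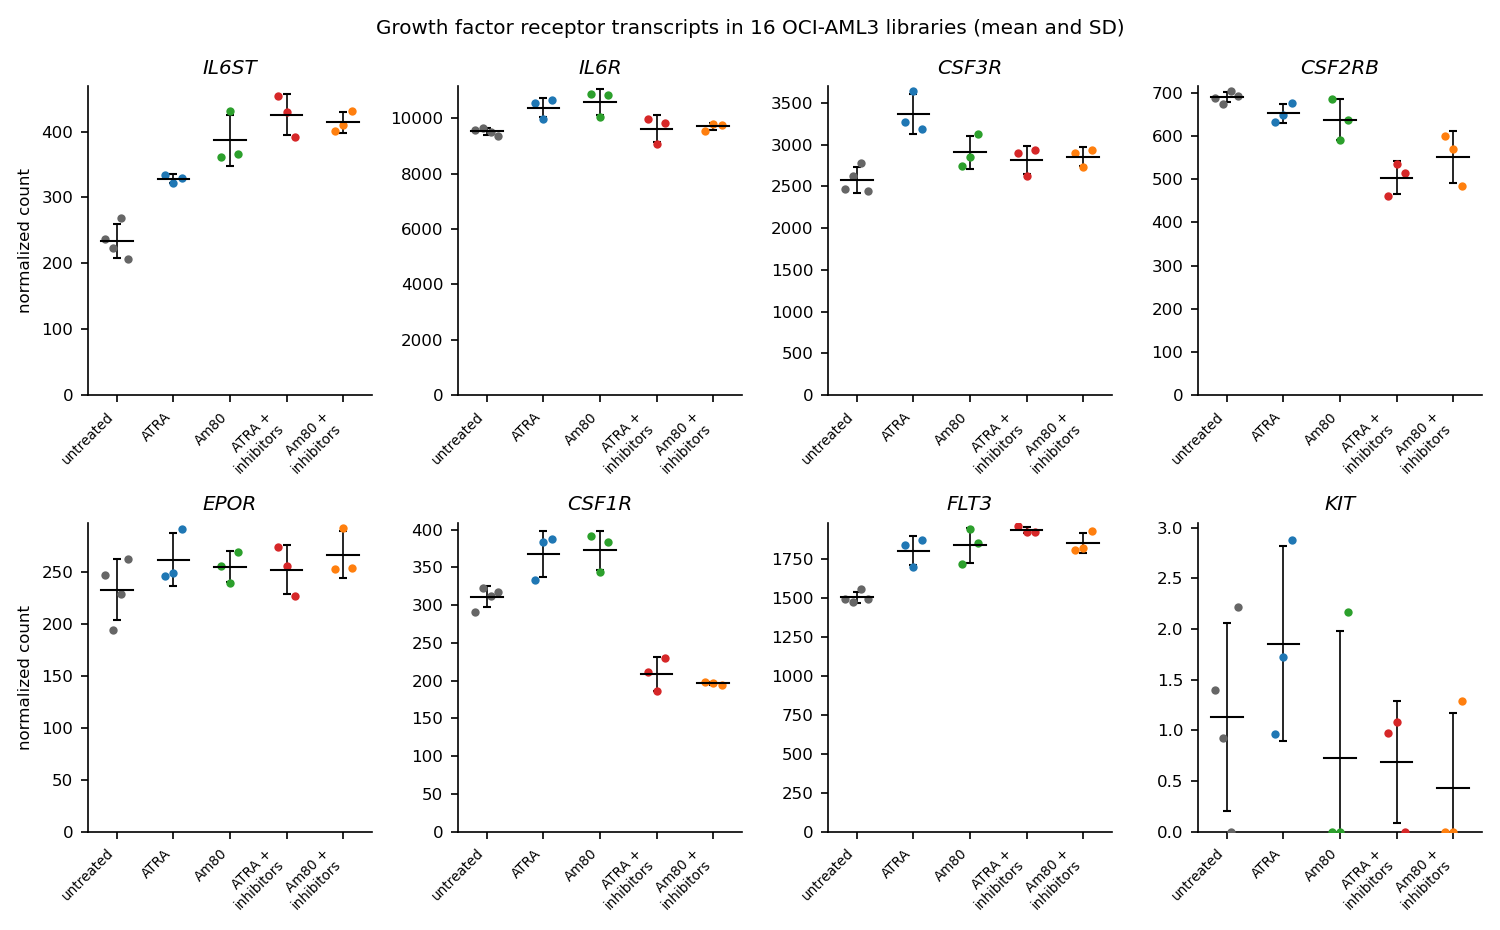
Normalized counts of 8 receptors in each of the 16 libraries (points, linear axes from 0), with the mean (line) and SD (bars) of each group, 4 untreated and 3 per treated group. IL6ST climbs from 207 to 269 in untreated cells to 392 to 454 with ATRA plus inhibitors, CSF1R drops below 231 in both groups with inhibitors, and KIT stays under 3 normalized counts.

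Counted over the 7 tested receptors, 3 rose and none fell with ATRA (IL6ST, CSF3R and FLT3), where 24.6% of all tested genes were called, 12.5% higher and 12.1% lower. With Am80 4 rose and none fell (IL6ST, FLT3, CSF1R and IL6R), beside 28.8% of all genes, 15.4% higher and 13.4% lower. Each combination against untreated cells gave 2 that rose (IL6ST and FLT3) and 2 that fell (CSF1R and CSF2RB). Of all genes 60.2% were called for ATRA plus inhibitors, 30.2% higher and 30% lower, and 54.7% for Am80 plus inhibitors, 28% higher and 26.6% lower. Adding the inhibitors to ATRA gave 1 rise (IL6ST) and 3 falls (CSF1R, CSF2RB and CSF3R), beside 49.3% of all genes, 24.9% higher and 24.4% lower. Adding them to Am80 gave 1 fall (CSF1R), beside 39.5%, 19.9% higher and 19.5% lower. The shares of receptors called, 3 or 4 of 7 in 5 of these comparisons, are read against backgrounds of 24.6% to 60.2%, and with 7 genes they are counts only. The 4 comparisons with untreated cells share the same 4 control libraries, so their calls are not independent of each other. With a further limit of 1.5-fold, no receptor was left with ATRA (9.45% of all genes), IL6ST was left with Am80 (10.2%) and with ATRA plus inhibitors (29.1%), and IL6ST and CSF1R with Am80 plus inhibitors (26%). CSF1R alone was left on adding the inhibitors to ATRA (19.5%) and to Am80 (15.7%).

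**Figure D3:**
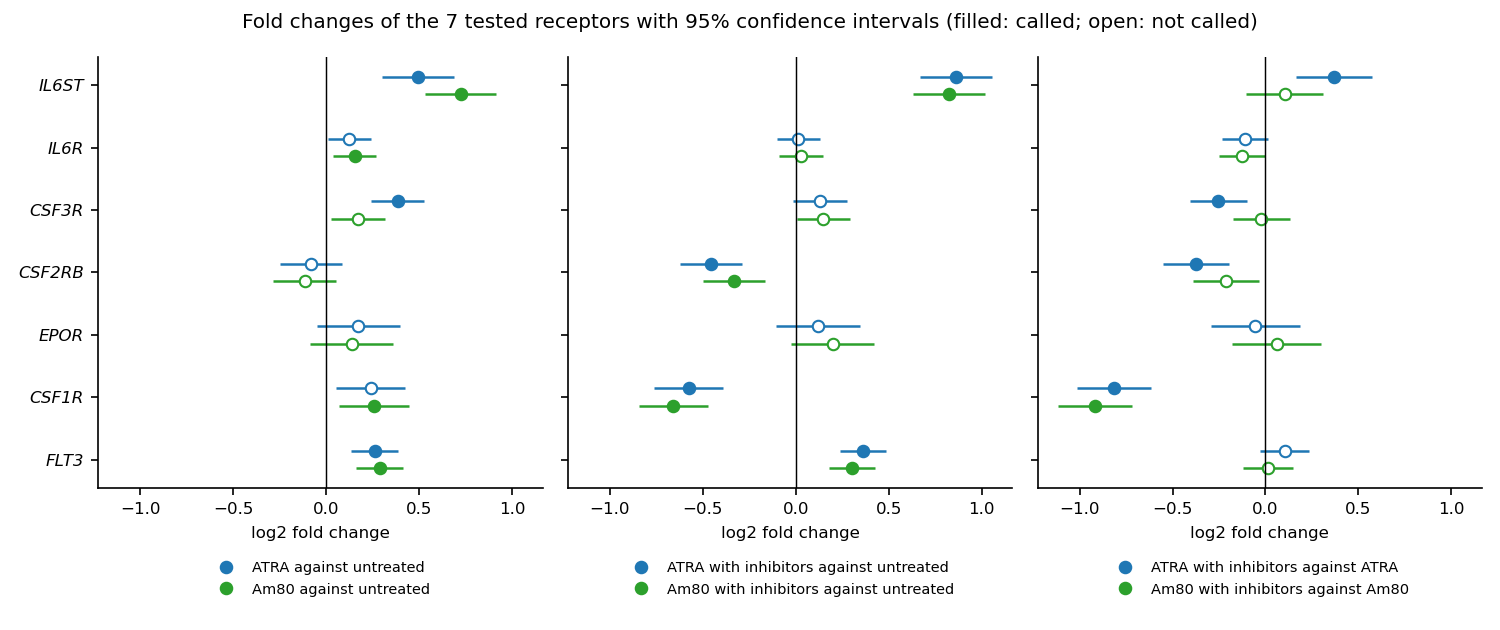
Log2 fold changes of the 7 tested receptors with 95% confidence intervals from one limma fit, for ATRA (blue) and Am80 (green) against untreated cells, for each combination against untreated cells, and for each combination against its retinoid. Filled points passed an adjusted p under 0.05, and the point farthest to the left is CSF1R at -0.92 on adding the inhibitors to Am80.

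ATRA and Am80 differ in chemical scaffold and in receptor selectivity, and they were given at the same dose and for the same time. For the 7 receptors the difference of Am80 from ATRA lay between -0.21 (CSF3R) and 0.23 (IL6ST) on the log2 scale, and none was called, beside 0.239% of all genes (35 of 14643). The count over all genes was unstable: it was 343 with DESeq2, 452 without Am80 replicate 3 and 458 without untreated replicate 4, but 0 without the filter, with only the groups compared and when any 1 of 10 other libraries was left out. No receptor was called under any of these settings. Unadjusted p-values were under 0.05 for 2 of the 7, CSF3R and IL6ST, beside 13.9% of all genes, and these were the 2 whose ranges did not overlap, as in 20.2% of all genes. CSF3R was lower with Am80 by -0.21, with a 95% interval from -0.37 to -0.06 (adjusted p = 0.197). IL6ST was higher with Am80 by 0.23, with an interval from 0.02 to 0.44 (adjusted p = 0.303). These intervals leave room for differences of either size up to their ends, so the receptors are not shown to respond alike.

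Between the 2 combinations the differences of the 7 receptors lay between -0.08 (CSF1R) and 0.13 (CSF2RB), with 95% intervals reaching from -0.28 to 0.32, and none was called or had an unadjusted p under 0.05, beside 18.1% of all genes. By limma 0% of all genes were called there, with 2656 genes at an unadjusted p under 0.05, while edgeR called 0 and DESeq2 119. This count too depended on the fit, with 1975 genes called with only the groups compared, 646 without untreated replicate 4 and 243 without Am80 replicate 2, and no receptor among them. Whether the inhibitors acted differently on top of each retinoid was tested as an interaction, which also called 0 genes, with 2211 (15.1%) at an unadjusted p under 0.05, 0 by edgeR, 27 by DESeq2 and 41 by limma without Am80 replicate 3. Among the receptors it lay between -0.27 (IL6ST) and 0.23 (CSF3R), and only CSF3R had an unadjusted p under 0.05 (adjusted p = 0.306).

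Of 14 genes that code for ligands of these receptors or of gp130 partners, 3 passed the filter: OSM, LIF and CSF1. Their counts, and those of the lists that follow, stand beside the shares of all genes given above. CSF2, CSF3 and IL6, which code for GM-CSF, G-CSF and IL-6, had no read in any library. OSM, which codes for oncostatin M, had 46.0, 37.9, 31.1 and 48.7 normalized counts in untreated cells, 196, 223 and 225 with ATRA, and 269, 194 and 244 with Am80. It reached 577, 876 and 655 with ATRA plus inhibitors and 1326, 1097 and 865 with Am80 plus inhibitors. The groups without inhibitors and those with them did not overlap. The rise was 2.38 ± 0.17 on the log2 scale with ATRA (adjusted p = 3.5e-10) and 2.50 ± 0.17 with Am80 (adjusted p = 1.5e-10). It was 4.07 ± 0.17 with ATRA plus inhibitors (adjusted p = 3.6e-14) and 4.71 ± 0.17 with Am80 plus inhibitors (adjusted p = 3.1e-15). LIF, another gp130 ligand, rose by 1.60 ± 0.12 with ATRA and 1.57 ± 0.12 with Am80, and by 0.92 with ATRA plus inhibitors (adjusted p = 1.6e-06). The LIF mean was 188 normalized counts with ATRA and 117 with ATRA plus inhibitors, and 185 with Am80 and 136 with Am80 plus inhibitors. Of the 3 ligands, adding the inhibitors to either retinoid gave 1 called rise and 2 called falls. CSF1, the ligand of CSF1R, rose with each retinoid (1.08 and 1.02, adjusted p = 0.0022 and 0.0032). With the inhibitors added to ATRA it fell by 1.30 on the log2 scale, and it was then close to untreated cells (-0.22, adjusted p = 0.46), at 9 to 68 reads per library.

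Partner receptors of gp130 and related receptors numbered 19, of which 13 were tested. With ATRA 4 rose and 2 fell, with Am80 4 and 3, and with the combinations 7 rose and 2 fell (ATRA) or 7 rose and 3 fell (Am80), medians 0.28, 0.25, 0.32 and 0.39 on the log2 scale beside medians of all genes near 0. LIFR, which pairs with gp130 to bind LIF and oncostatin M, had 144, 175, 168 and 121 normalized counts in untreated cells. It had 225, 202 and 176 with ATRA and 275, 279 and 247 with ATRA plus inhibitors, a rise of 0.82 ± 0.12 on the log2 scale (adjusted p = 6.3e-06). OSMR, the other gp130 partner for oncostatin M, was singled out after its values were seen. It rose by 0.28 with ATRA, 0.25 with Am80, 0.49 with ATRA plus inhibitors and 0.39 with Am80 plus inhibitors, and per kilobase it stood at 210 over the 16 libraries, 11.6 times LIFR. IL11RA, the IL-11 chain, fell in both combinations against untreated cells (-0.72 and -1.02), and GHR, the growth hormone receptor, rose in both (0.87 and 0.83).

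IL7R and PRLR, receptors of IL-7 and prolactin, were also singled out after their values were seen, since they moved in opposite directions without and with the inhibitors. IL7R had 106 to 140 normalized counts in untreated cells, 49.2 to 73.0 with either retinoid and 241 to 373 with either combination. PRLR had 38.8 to 58.5, 14.5 to 21.7 and 81.1 to 119 in the same groups. Neither gene had overlapping ranges between these 3 sets of libraries. Both were picked for this pattern, so the separation is a description only. How many of all genes keep these 3 sets apart was not counted, here or for SH2B3 and ADAM17 below. Both falls with ATRA (-0.99 and -1.37) and both rises with ATRA plus inhibitors (1.25 and 1.28) were called by limma, with adjusted p-values between 2.2e-06 and 0.00011.

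Of 11 JAK and STAT genes 10 were tested. With ATRA 4 rose and 1 fell, with Am80 1 rose and 1 fell, and with the combinations 3 rose and 3 fell (ATRA) or 3 rose and 4 fell (Am80). JAK2, the kinase that EPOR and the common beta chain use, rose in all 4 comparisons with untreated cells, by 0.53, 0.56, 0.46 and 0.30 on the log2 scale. JAK1, the kinase of gp130 receptors, rose in the combinations (0.41 and 0.31). STAT5A, a STAT of the G-CSF, GM-CSF and erythropoietin receptors, rose by 1.52 ± 0.22 and 1.41 ± 0.22 in the combinations, from 13.7 to 30.5 normalized counts in untreated cells to 48.1 to 62.5, and was not called with a retinoid alone (0.55 and 0.50).

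Inhibitors of receptor signalling numbered 17, all tested: 5 rose and none fell with ATRA, 5 rose and 1 fell with Am80, 7 rose and 5 fell with ATRA plus inhibitors, and 6 rose and 5 fell with Am80 plus inhibitors. SH2B3 (LNK), an adaptor that restrains JAK2 and KIT signalling, stood between 1592 and 1851 normalized counts in untreated cells, between 3654 and 3854 with either retinoid and between 4676 and 5055 with either combination. These 3 ranges were apart, and the rises were 1.13 ± 0.06 with ATRA (adjusted p = 2.9e-12) and 1.49 ± 0.06 with ATRA plus inhibitors (adjusted p = 2.2e-14). SOCS1, which blocks JAK kinases, rose by 1.72, 1.76, 1.46 and 1.47 in the 4 comparisons with untreated cells, from a low level of 12.01 to 16.7 normalized counts. SOCS2, a STAT5 target that limits cytokine receptors, fell in the combinations (-1.44 and -1.60 on the log2 scale) and was not called with a retinoid alone.

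**Figure D4:**
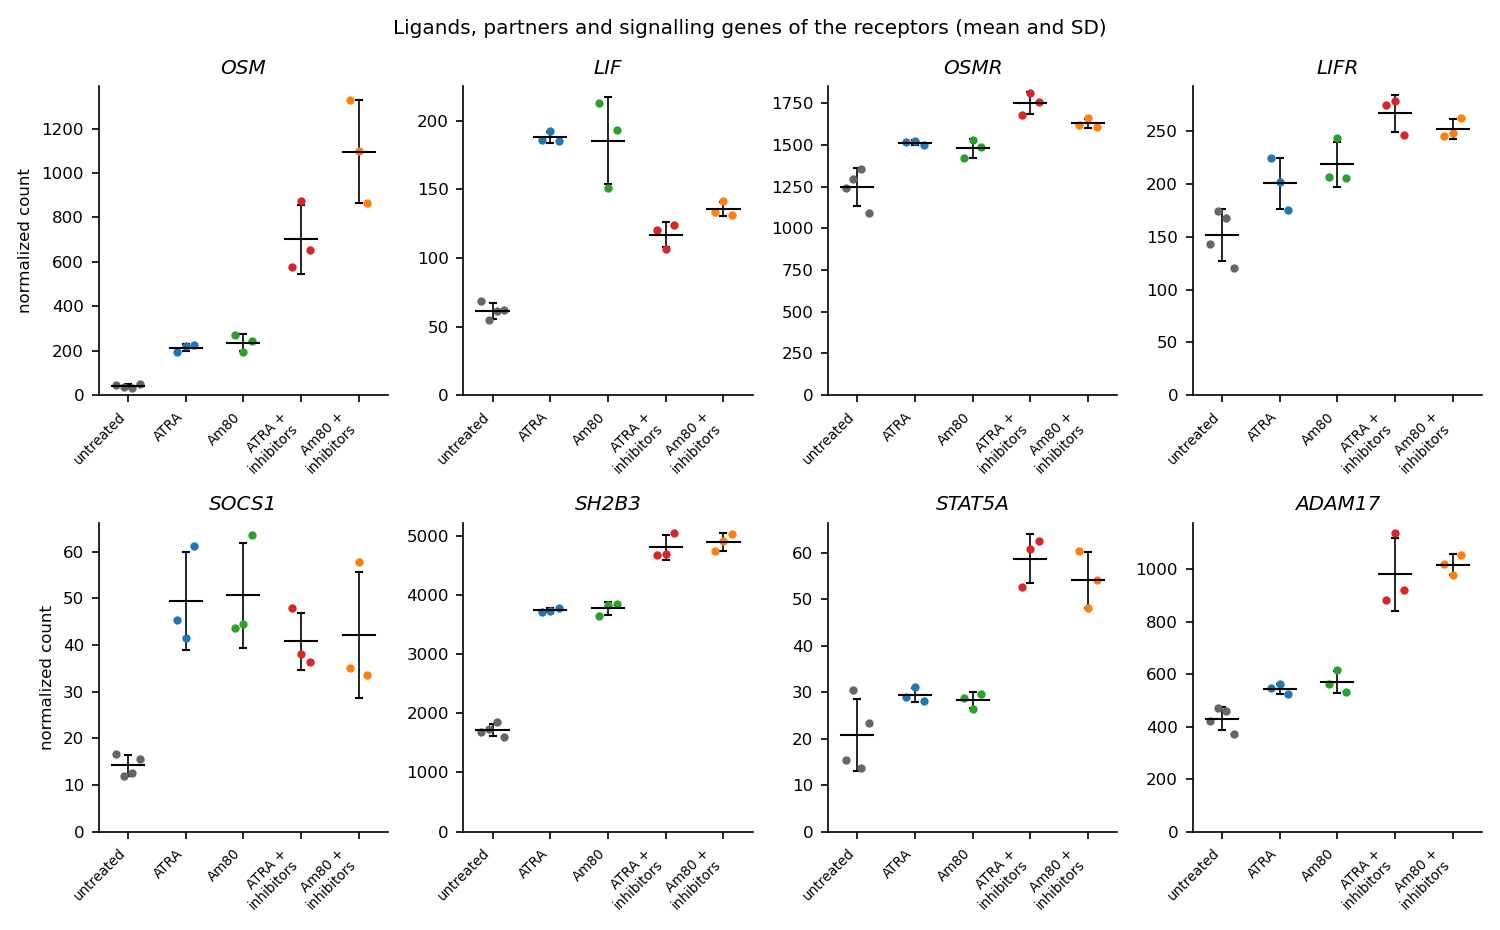
Normalized counts per library (points, linear axes from 0) with group mean and SD for 2 gp130 ligands, 2 gp130 partner receptors, 2 inhibitors of JAK signalling, STAT5A and ADAM17. OSM rises from at most 48.7 in untreated cells to between 865 and 1326 with Am80 plus inhibitors, and SH2B3 forms 3 separate levels.

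Of the 18 adaptors and kinases below the receptors, 11 rose and 4 fell with ATRA plus inhibitors and 10 rose and 4 fell with Am80 plus inhibitors, while 2 rose and 1 fell with ATRA and 2 rose and 2 fell with Am80. All genes show the same order, with 60.2% and 54.7% called in the combinations and 24.6% and 28.8% with a retinoid alone. PIK3CD, a catalytic PI3 kinase subunit of blood cells, fell in the combinations (-0.87 and -0.90 on the log2 scale), as did PLCG1, a phospholipase (-0.79 and -0.60). PIK3R1, a regulatory PI3 kinase subunit, rose in all 4 comparisons with untreated cells (0.41, 0.40, 0.59 and 0.47).

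Of 15 genes known as STAT targets 14 were tested, and they moved both ways: 6 rose and 4 fell with each retinoid, 5 rose and 7 fell with ATRA plus inhibitors, and 5 rose and 6 fell with Am80 plus inhibitors. OSM is one of them. BCL6, a repressor, rose by 1.44, 1.19, 2.06 and 2.24 on the log2 scale, and ID1, an inhibitor of helix-loop-helix factors, by 1.99, 1.86, 2.15 and 2.31.

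Of 10 genes of receptor shedding and trafficking, 4 rose and none fell with ATRA, 3 rose and 1 fell with Am80, and 6 rose and 1 fell with each combination. ADAM17, the protease that releases IL6R and CSF1R from the cell surface, had 373 to 469 normalized counts in untreated cells, 524 to 616 with either retinoid and 881 to 1139 with either combination. The 3 ranges did not overlap, and the rises were 0.34 ± 0.09 with ATRA (adjusted p = 0.0086) and 1.18 ± 0.09 with ATRA plus inhibitors (adjusted p = 1.1e-09). NEDD4L, a ubiquitin ligase, rose in all 4 comparisons with untreated cells (0.43, 0.52, 0.98 and 0.85). TIMP3, an inhibitor of ADAM17, rose by 0.48, 0.40, 0.27 and 0.27.

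Of 17 transcription factors known to act on myeloid receptor genes 14 were tested. With ATRA 1 rose and 6 fell, with Am80 1 rose and 5 fell, and with each combination 4 rose and 9 fell, with medians of -0.16, -0.12, -0.37 and -0.36 on the log2 scale. CEBPB rose by 1.54, 1.55, 1.61 and 1.82. GATA2, a factor of progenitors, fell in all 4 comparisons with untreated cells (-0.83, -0.98, -1.21 and -1.30 on the log2 scale), as did TAL1, a factor of stem cells and red cell precursors (-0.61, -0.77, -1.22 and -1.61).

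Over the 16 libraries, the genes whose log2 level followed each receptor most closely were found among the 11300 genes that averaged 50 or more normalized counts. Nearest to IL6ST were LIMS1 (Pearson r = 0.982), DENND6A (r = 0.974) and CIP2A (r = 0.974), and nearest to CSF1R were IKBKE (r = 0.977), VILL (r = 0.971) and CCR2 (r = 0.968). For FLT3 they were APPL1, ADD3 and CCDC186 (r from 0.955 to 0.972), and for CSF2RB NUP93, AARS1 and GALNT2 (r from 0.941 to 0.948). Genes close to CSF3R included LTB4R2 (r = 0.914) and NUP210 (r = 0.890), and IL6R was followed by RTL6, ACVRL1 and RRBP1 (r from 0.888 to 0.919). The points share the 5 treatment groups and the scaling of each library, so these values describe a likeness over the groups.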

How the data were processed

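RNA-seq of OCI-AML3 gave 16 libraries in 5 groups, taken from the labels. Where the labels do not say that repeats were separate cultures, p-values measure only the spread between these libraries. To make the signal values, which are counts normalized with DESeq2, the authors counted reads per gene on Galaxy (STAR and featureCounts, per the submitters' notes), divided them by size factors and deposited one table. Versions, genome build and strand setting are not given in the sources used here. Multiplying by the size factors gave whole reads for 100% of values (tolerance 0.001). Identifiers were matched to the symbols given with the reference (62700 of 62700) and to GENCODE 29 (GRCh38) for positions and exon lengths.

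The 14643 genes that averaged 10 or more normalized counts were tested on log2(normalized count + 1), a scale that understates the change of low genes, with limma 3.58.1 in R 4.3.3 in one fit of all 16 libraries. In each comparison p-values were adjusted over all tested genes (Benjamini-Hochberg), and a call means an adjusted p under 0.05. Alternatives were edgeR 4.0.16 and DESeq2 1.42.0 on recovered reads, other scalings, filters, pseudocounts and groups, a 1.5-fold limit, a replicate block and leaving out each library. Intervals are 95% intervals of the fit. The limma, edgeR and DESeq2 steps were tested on simulated data. Tables were made with Python 3.11.15 and pandas 2.3.3. The members and the gene lists were chosen with earlier results of these data known. Named genes were the 9 members, up to 3 genes per list with the largest mean change among those called in at least 2 comparisons with untreated cells, ligands and partner receptors, and the 3 genes most like each member, of which 1 is not reported here. Overlapping and antisense genes are reported as uncertain, since the strand setting is not given.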

Additional observations from a re-analysis of the deposited data

How the results depend on the processing

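The number of receptors called kept within 1.5 times its value under most settings. With a 1.5-fold limit it was 0 with ATRA, 1 with Am80, 1 with ATRA plus inhibitors and 2 with Am80 plus inhibitors against untreated cells, and 1 on adding the inhibitors to ATRA. For Am80 against untreated cells it was 2 in place of 4 without the filter, with scaling by total reads and with only the groups compared, and between 2 and 4 when 1 library was left out, with 2 without untreated replicate 1 or Am80 replicate 1 or 3. On adding the inhibitors to Am80 it was 1, but 2 with a mean of at least 50, TMM scaling, edgeR or DESeq2, 3 with quantile normalization or scaling by total reads, and between 1 and 3 with 1 library left out (3 without Am80 replicate 2). By longest transcript 5 of the 7 receptors kept their rank in untreated cells. The gene lists' counts moved by more than 1.5 times only under the 1.5-fold limit. Scaling by total reads lowered the share of rises among all calls from 50.5% to 29.8% on adding the inhibitors to ATRA and from 51.3% to 30.4% for Am80 plus inhibitors against untreated cells. Causes were not tested.

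Some uncalled differences changed sign. With quantile normalization and with scaling by total reads respectively, CSF3R stood at -0.044 and -0.019 (ATRA plus inhibitors) and -0.047 and -0.036 (Am80 plus inhibitors) against untreated cells, IL6R at -0.13 and -0.13, then -0.18 and -0.16 (called except for the first of these 4), and FLT3 on adding the inhibitors at -0.013 and -0.043 (ATRA) and -0.086 and -0.11 (Am80). FLT3 on Am80 was also -0.0093 with TMM and -0.011 with edgeR. EPOR was -0.029 (ATRA plus inhibitors against untreated) and -0.063 (added to Am80) with scaling by total reads and 0.052 (added to ATRA) with quantile normalization, and IL6ST was -0.021 (added to Am80) with scaling by total reads.

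With 1 library left out, sign changes gave ranges of -0.065 to 0.030 for CSF3R, -0.034 to 0.055 for FLT3 and -0.0086 to 0.10 for EPOR on adding the inhibitors to Am80, -0.12 to 0.023 for EPOR on adding them to ATRA, and -0.013 to 0.056 for IL6R with ATRA plus inhibitors against untreated cells. With the replicate number as a block the receptors called were 3 with ATRA, 4 with Am80, 4 with each combination against untreated cells, 4 on adding the inhibitors to ATRA and 1 on adding them to Am80, as without it. Over all genes the block gave 402 calls in place of 35 for Am80 against ATRA and 690 in place of 0 between the combinations, with no receptor among them. Only the untreated group has a replicate 4, so the block also takes untreated replicate 4 out of the comparison. Leaving out that library without a block gave 458 and 646 calls, so these counts do not isolate the replicate number. Whether libraries with the same number are paired is not in the labels. Deviations of libraries with the same number correlated between -0.11 and 0.19 (median -0.0050, 30 pairs, 4 over 0.1). Those with other numbers correlated between -0.23 and 0.23 (median -0.0090, 72 pairs, 11 over 0.1). Correlations this weak show no pairing and cannot exclude one. Depth limits KIT, which was under the filter on low values. Fits made without this filter took KIT in, but its few reads give no ground for a comparison. The 95% interval for a receptor against untreated cells reached up to 0.22 on the log2 scale to each side.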
